A study of Mus musculus with 17 samples.

Results

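The genes described here take amino acids apart in the liver and turn the released nitrogen into urea. They were chosen by name, as a list of 39 genes of the urea cycle, transamination and the breakdown of tyrosine, histidine, serine, glycine, methionine, cysteine, lysine, proline and branched chain amino acids. Of these, 36 had a probe set naming that gene alone, out of 18194 such genes in all. Gls2, Sds and Sdsl had none and were not analysed here. The rule for the list names no measured value. The list was nevertheless chosen with earlier results of these data known, so its comparisons with all genes may carry that choice.

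RNA of mouse liver was hybridised to 17 Affymetrix expression arrays in 4 groups. The aryl hydrocarbon receptor (AHR) is a transcription factor that binds dioxins such as TCDD. Wild type male C57BL/6J mice (Ahr+/+) were given TCDD in corn oil (6 arrays) or corn oil alone (5 arrays). AHR knockout males (Ahr-/-, on the same background) likewise received TCDD in corn oil (3 arrays) or corn oil alone (3 arrays). The TCDD dose was 1000 µg/kg, once by gavage, and livers were taken 19 h later. Knockout mice were 10 weeks old and came straight from a supplier. Wild type mice were 15 weeks old and had been bred at a research institute from that supplier's stock, so age, source and genotype cannot be told apart. Whether every array came from its own mouse is not stated in the labels; the p-values therefore cover the variation among these arrays only, part of which may be technical.

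Amino acids lose their nitrogen mainly by transamination to glutamate, from which ammonia is released in mitochondria. The urea cycle then joins ammonia and aspartate nitrogen into urea, starting with carbamoyl phosphate synthetase (Cps1), which needs N-acetylglutamate made by Nags. The carbon skeletons go to glucose, ketone bodies or energy, and methionine and glycine breakdown also feed the pools of methyl groups. In liver, transcription of many of these enzymes follows feeding, fasting, glucagon and glucocorticoids.

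Promoter sequence is shown for 3 members on which the results below turn: Nags and Gldc had the largest called rise and fall after TCDD, and Got1 the largest called difference between genotypes. Each line holds the 250 bases before the gene's start, 5′ to 3′ on the gene's own strand, from RefSeq on build GRCm38.p6. Capitals mark the core of the AHR binding site, read with the bases around it.
Nags (chr11:102145263-102145512, + strand): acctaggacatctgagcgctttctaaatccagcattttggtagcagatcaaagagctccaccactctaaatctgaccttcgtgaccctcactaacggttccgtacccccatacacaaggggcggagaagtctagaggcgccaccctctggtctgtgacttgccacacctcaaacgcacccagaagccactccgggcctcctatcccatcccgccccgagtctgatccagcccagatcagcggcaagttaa
Gldc (chr19:30175442-30175691, - strand): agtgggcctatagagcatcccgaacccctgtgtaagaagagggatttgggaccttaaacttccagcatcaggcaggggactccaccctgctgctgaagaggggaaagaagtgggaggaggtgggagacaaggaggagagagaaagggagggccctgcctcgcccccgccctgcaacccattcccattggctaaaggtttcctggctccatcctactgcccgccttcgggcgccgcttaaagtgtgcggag
Got1 (chr19:43524606-43524855, - strand): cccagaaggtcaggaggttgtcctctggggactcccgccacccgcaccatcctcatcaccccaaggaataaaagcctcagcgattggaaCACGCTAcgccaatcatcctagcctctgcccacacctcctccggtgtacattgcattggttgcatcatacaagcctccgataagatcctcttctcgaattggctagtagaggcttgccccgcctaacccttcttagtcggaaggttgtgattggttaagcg
The core GCGTG, searched on both strands, was not among these letters of Nags or Gldc and was found in Got1 on the opposite strand, as part of the longer TNGCGTG, whose last letters are the core. Over the 34 RefSeq promoters of 29 measured members, 13 held the core (38.2%), against 28.2% of all 32851 promoters in the table. The longer motif was in 5 of 34 (14.7%), against 4.1% of all. The cAMP response element TGACGTCA was in 0 of 34, against 1.55% of all. A match of letters is a description and no evidence of binding.

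Values are the deposited log2 expression values, so a difference of 1 is a doubling and -1 the reverse, and levels are compared only within a gene. The words rose and fell are used where limma's Benjamini-Hochberg adjusted p, over all 45037 probe sets, was under 0.05. In whole liver, fewer cells of a type and less RNA per cell cannot be told apart. Cyp1a1, the classical AHR target, read 15.08 to 15.25 on wild type TCDD arrays and 4.98 to 6.95 on wild type corn oil arrays. On knockout TCDD arrays it read 12.64, 5.32 and 5.34, and on knockout corn oil arrays 6.54, 5.81 and 7.18. Cyp1a2 read 13.27, 11.69 and 11.20 on the knockout TCDD arrays, against 11.40, 11.28 and 11.45 on the knockout corn oil arrays. The first library labelled knockout TCDD thus goes against its label in both genes. Yet both readings lay below every wild type TCDD array (15.54 to 15.68 for Cyp1a2). In the members Got1, Aass, Asl and Mat1a the same array read 13.29, 13.23, 13.46 and 15.03, above every wild type array. What lies behind its readings was not tested. The counts and the called differences that rest on this array are given with and without it. Ahr's own probe set does not check the label, since the labels do not name the deleted part of the gene. The sixth wild type TCDD array stood apart, with a residual SD of 0.35 (0.138 to 0.21 on the others) and a Gapdh 3′ minus 5′ signal of 1.976 (-0.165 to -0.011 on the others), a measure of RNA or labelling quality.

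After TCDD, 3 of the 36 members rose in wild type livers (Nags, Arg1 and Cdo1) and 11 fell, among them urea cycle, glycine, histidine, tyrosine, methionine and lysine enzymes. Among all genes 3.75% rose and 2.56% fell. The median log2 difference of the members was -0.29, against 0.009 over all genes, and 27 of 36 members had an unadjusted p under 0.05, against 16.8% of all genes. Of these 27, 6 were higher and 21 lower. In level, 33 of the 36 members averaged at least 10 in every group, while the array medians over all probe sets were 3.08 to 3.19. The shares of all genes, here and below, are not matched for level, and the part of level in the gap was not tested. The changes were mostly of modest size: apart from Nags, no called member changed by as much as 1 on the log2 scale.

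**Figure D1:**
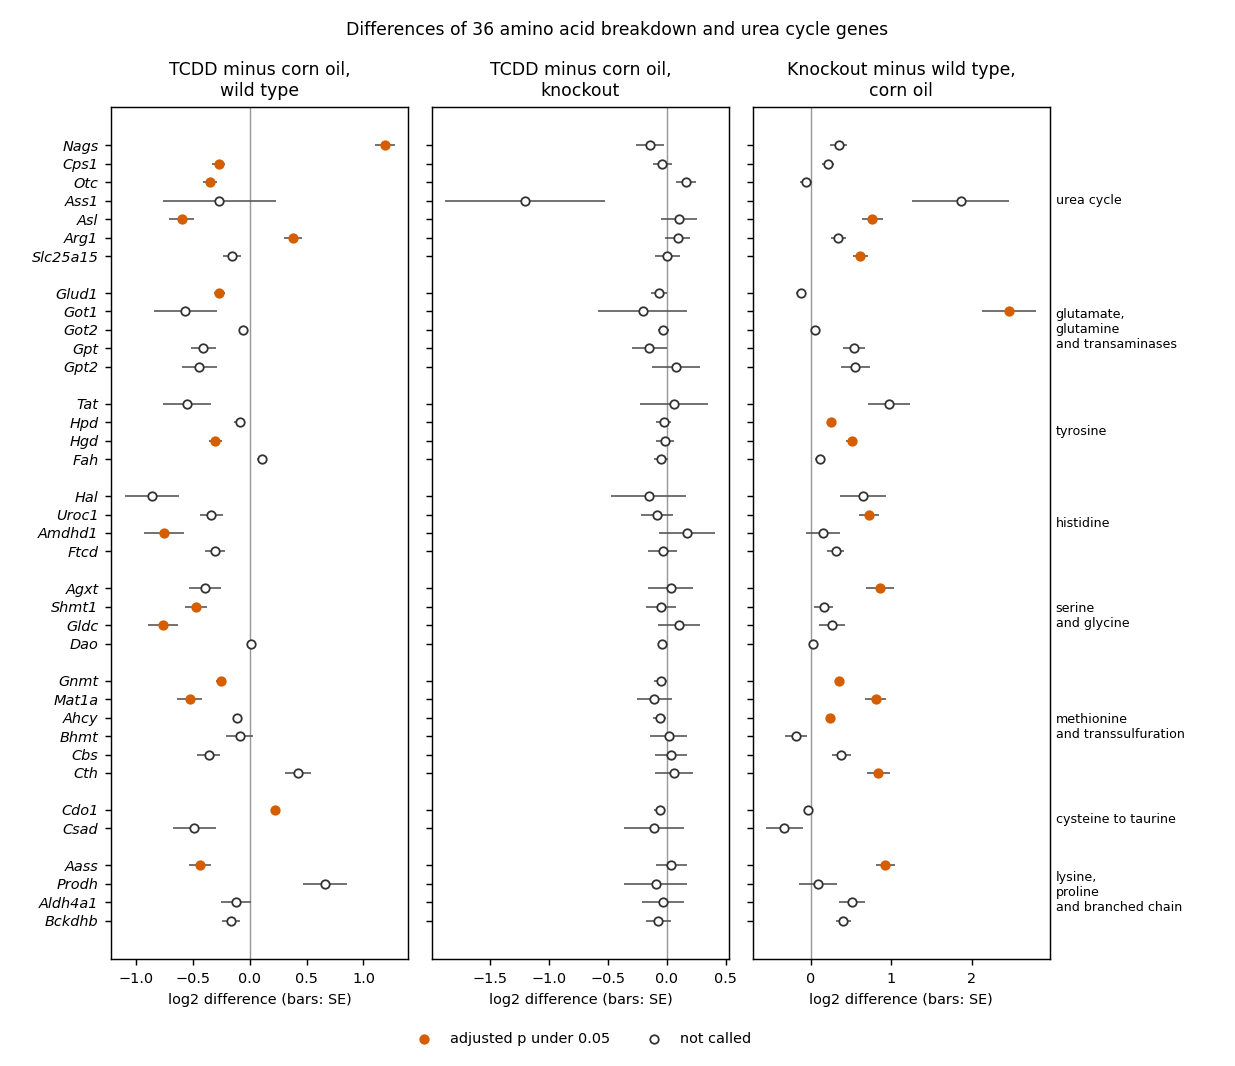
Log2 differences of the 36 measured members (x axis, own scale in each panel) with standard errors as bars, in 3 panels: TCDD minus corn oil in wild type livers, the same in knockout livers, and knockout minus wild type on corn oil. Filled points passed limma's adjusted threshold: 14 members in the first panel, 0 in the second and 12 in the third, where all 12 lie to the right of 0.

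In the urea cycle, 2 of 7 members rose and 3 fell. Nags, which makes the activator of Cps1, read 10.22 (lowest), 10.36 (median) and 10.65 (highest) on the 6 wild type TCDD arrays, against 9.36, 9.29, 9.24, 8.97 and 9.22 on the wild type corn oil arrays. Every TCDD array lay above every corn oil array. The difference was 1.19 ± 0.09, a 2.28-fold rise (adjusted p = 1.37e-06). Arginase 1 (Arg1), which splits arginine into urea and ornithine, read 14.46 (lowest), 14.56 (median) and 14.69 (highest) with TCDD, against 13.91, 14.10, 14.39, 14.32 and 14.28 with corn oil. It rose by 0.38 ± 0.08 (adjusted p = 0.0113), and the groups did not overlap, although after quantile normalization its adjusted p was 0.0602.

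The other called urea cycle members fell. Argininosuccinate lyase (Asl), which releases arginine and fumarate, read 11.57 (lowest), 11.80 (median) and 12.18 (highest) with TCDD, against 12.34, 12.44, 12.60, 12.19 and 12.60 with corn oil. The groups were apart, though only by the narrow gap between the highest TCDD array and the lowest corn oil array. Its difference of -0.60 ± 0.11 was a 1.51-fold lower level (adjusted p = 0.00484). Ornithine transcarbamylase (Otc), which makes citrulline in mitochondria, read 12.52 (lowest), 12.75 (median) and 12.85 (highest) with TCDD, against 12.92, 13.06, 13.16, 13.06 and 13.07 with corn oil. All TCDD arrays were below all corn oil arrays, and the difference was -0.35 ± 0.06 (adjusted p = 0.00425). Cps1 read 13.68 (lowest), 13.80 (median) and 13.91 (highest) with TCDD, against 14.04, 14.10, 14.23, 14.06 and 13.96 with corn oil. Its groups did not overlap either, and it differed by -0.27 ± 0.06 (adjusted p = 0.0135).

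Neither the mitochondrial ornithine carrier Slc25a15 (-0.16 ± 0.08, adjusted p = 0.504) nor argininosuccinate synthase (Ass1) passed the test. The probe set that names Ass1 alone read low and unevenly, from 4.81 to 9.64 over all arrays. A brighter probe set that the annotation assigns to Ass1 together with Gm5424, and so is uncertain, read 14.18 (lowest), 14.43 (median) and 14.60 (highest) with TCDD, against 14.39 to 14.84 with corn oil. These ranges overlapped, with a difference of -0.15 ± 0.09 (limma adjusted p = 0.68).

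Among 5 measured genes of glutamate and transamination 1 fell. Glutamate dehydrogenase (Glud1), which releases ammonia from glutamate, read 13.62 (lowest), 13.78 (median) and 13.89 (highest) with TCDD, against 14.16, 14.09, 13.97, 13.99 and 14.02 with corn oil. The groups were separate, with a difference of -0.27 ± 0.05 (adjusted p = 0.00435), and its second probe set was also called (-0.29). Alanine transaminases exist as a cytosolic form, Gpt, and a mitochondrial one, Gpt2. Gpt read 10.49 (lowest), 10.75 (median) and 10.98 (highest) with TCDD, against 10.76, 11.12, 11.41, 11.18 and 11.21 with corn oil. The groups overlapped through the lowest corn oil array, and Gpt missed the threshold at -0.41 ± 0.11 (adjusted p = 0.0524). Gpt2 read 11.27 (lowest), 11.57 (median) and 11.76 (highest) with TCDD, against 11.63, 11.83, 12.28, 11.84 and 12.48 with corn oil. Its groups overlapped too (-0.44 ± 0.15, adjusted p = 0.159). The other 3 Gpt2 probe sets differed by -0.55, -0.59 and -0.62, with adjusted p-values of 0.0231, 0.018 and 0.108, so the call depends on which is read.

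Aspartate transaminases likewise have a cytosolic form, Got1, and a mitochondrial form, Got2. Got1 read 9.80 (lowest), 10.20 (median) and 10.91 (highest) in wild type livers with TCDD, against 10.73, 11.04, 11.94, 10.21 and 10.61 with corn oil. Both groups were widely spread and overlapped, and the difference of -0.57 ± 0.28 was not called (adjusted p = 0.49). On its brightest probe set Got2 stayed in a narrow range on every wild type array, 12.65 (lowest), 12.73 (median) and 12.81 (highest) with TCDD, against 12.78, 12.76, 12.84, 12.79 and 12.74 with corn oil (-0.06 ± 0.03, adjusted p = 0.717). Another of its 4 probe sets was wider, at 11.27 to 11.80 with TCDD and 11.63 to 11.97 with corn oil. It differed by -0.23 ± 0.09 and was not called (limma adjusted p = 0.281).

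In glycine and serine metabolism 2 of 4 measured members fell. Glycine decarboxylase (Gldc), a part of the glycine cleavage system, read 9.91 (lowest), 10.33 (median) and 10.74 (highest) with TCDD, against 11.03, 11.16, 11.23, 10.88 and 10.94 with corn oil. No TCDD array reached the lowest corn oil array. At -0.765 ± 0.13 this was a 1.70-fold lower level (adjusted p = 0.00297). Serine hydroxymethyltransferase 1 (Shmt1), the cytosolic enzyme that interconverts serine and glycine, read 10.10 (lowest), 10.36 (median) and 10.56 (highest) with TCDD, against 10.75, 10.82, 11.03, 10.59 and 10.96 with corn oil. The groups did not overlap, and the difference was -0.48 ± 0.09 (adjusted p = 0.00809). Its other 3 probe sets were called as well, at -0.41, -0.43 and -0.59. Agxt, which detoxifies glyoxylate by transamination, was not called (-0.40 ± 0.14, adjusted p = 0.195). Dao, a D-amino acid oxidase, read 2.33 to 2.41 on all 17 arrays, below the array medians of 3.08 to 3.19, and its differences are not read here.

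Methionine is activated to S-adenosylmethionine by Mat1a, and 2 of 6 members of this route fell. Mat1a read 13.33 (lowest), 13.47 (median) and 13.87 (highest) with TCDD, against 13.95, 14.05, 14.18, 13.88 and 14.37 with corn oil. The groups were just separate, and Mat1a fell to a 1.44-fold lower level (-0.53 ± 0.11, adjusted p = 0.0106). Gnmt, which disposes of surplus methyl groups, averaged 14.04 ± 0.06 with TCDD (SD, n = 6) and 14.30 ± 0.08 with corn oil (SD, n = 5), a fall of smaller size (-0.26 ± 0.04, limma adjusted p = 0.00151). Ahcy, which releases homocysteine, Bhmt, which returns it to methionine, and Cbs and Cth, which carry it on to cysteine, differed by -0.11 for Ahcy, -0.09 for Bhmt, -0.36 for Cbs and 0.42 for Cth, and were not called. The representative Cbs probe set (adjusted p = 0.0553) and its second one (-0.39, adjusted p = 0.0423) lay on either side of the threshold.

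Downstream of cysteine, cysteine dioxygenase (Cdo1), the first step towards taurine and sulfate, rose. It read 14.14 (lowest), 14.20 (median) and 14.27 (highest) with TCDD, against 13.99, 14.03, 14.03, 13.88 and 13.95 with corn oil. The groups were separate and tight, and the rise was 0.22 ± 0.03, or 1.17-fold (adjusted p = 0.00117). Csad, the next enzyme towards taurine, differed by -0.49 ± 0.19 and was not called (adjusted p = 0.249).

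All 4 histidine-degrading enzymes were lower after TCDD at an unadjusted p under 0.05, and 1, Amdhd1, was called. This enzyme of the third step read 10.49 (lowest), 10.95 (median) and 11.36 (highest) with TCDD, against 11.19, 11.89, 12.07, 11.54 and 11.80 with corn oil. The groups overlapped through the lowest corn oil array. The difference was -0.75 ± 0.18, a 1.69-fold lower level (adjusted p = 0.024). The call was lost without any 1 of 6 arrays (wild type TCDD replicates 2, 3 and 5, and wild type corn oil replicates 2, 3 and 5), and the difference ran from -0.88 to -0.66 over all arrays left out. Histidase (Hal), the first step, had the largest difference of any member in size after Nags, -0.87 ± 0.24, but also a large error and an adjusted p of 0.0598. Uroc1, the second step, differed by -0.34 ± 0.10 (adjusted p = 0.0929) and Ftcd, the last step, by -0.31 ± 0.09 (adjusted p = 0.075).

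Of 4 tyrosine enzymes 1 fell and of 4 lysine, proline and branched chain enzymes 1 fell. Homogentisate dioxygenase (Hgd) read 13.02 (lowest), 13.16 (median) and 13.26 (highest) with TCDD, against 13.44, 13.41, 13.60, 13.46 and 13.39 with corn oil. The groups did not overlap (-0.31 ± 0.06, adjusted p = 0.00629). On the mean of its brighter and its much dimmer probe set the call was lost (-0.43, limma adjusted p = 0.0567). Aass, the first enzyme of lysine breakdown, read 11.44 (lowest), 11.63 (median) and 11.87 (highest) with TCDD, against 11.82, 12.17, 12.34, 12.02 and 12.10 with corn oil. Here the groups overlapped in 1 corn oil array, at -0.44 ± 0.10 (adjusted p = 0.0171), and without wild type corn oil replicate 2 the difference was -0.42 with an adjusted p of 0.0515. In a fit of the wild type groups alone Amdhd1 and Aass lost their calls (limma adjusted p = 0.0731 and 0.0597). Tat, Hpd and Fah, the other tyrosine enzymes, differed by -0.55, -0.09 and 0.10, and proline dehydrogenase (Prodh) by 0.66 ± 0.20 (adjusted p = 0.0885), none of them called. Aldh4a1, the step after Prodh (-0.12 ± 0.13), and Bckdhb, a subunit of the branched chain keto acid dehydrogenase (-0.17 ± 0.08), were not called either.

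**Figure D2:**
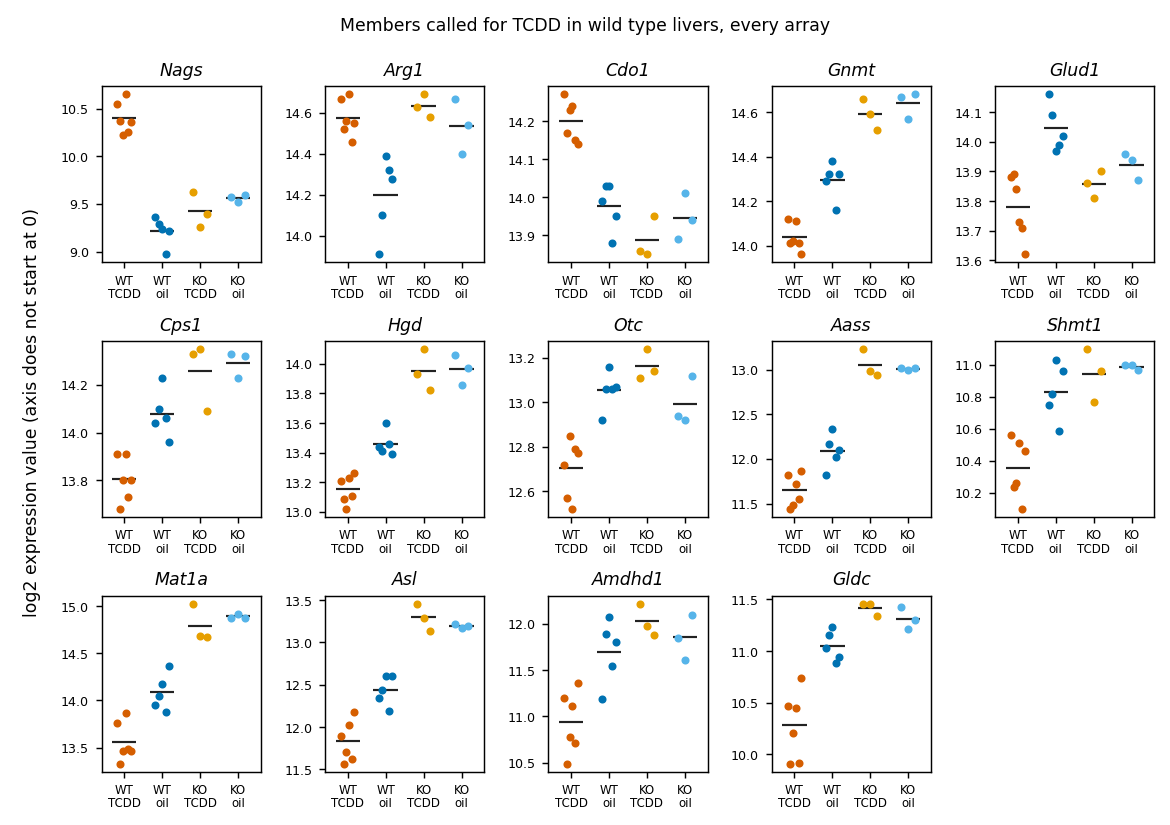
Log2 expression value (y axis, own scale in each panel) of the 14 members called for TCDD in wild type livers, 1 point per array and a line at each group mean, for wild type TCDD, wild type corn oil, knockout TCDD and knockout corn oil. In Nags the wild type TCDD arrays sit at 10.22 to 10.65, above all other arrays, whereas in Gldc they sit below all others.

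Arrays had been scanned on 3 days. Within day 1 (2 wild type TCDD arrays and 1 corn oil array) the members' median difference was -0.162 with 0 called, and within day 2 (4 and 3 arrays) it was -0.345 with 1 higher and 2 lower. With scan day as a block it was -0.311, with 3 higher and 12 lower. All 14 called members kept their direction on both days. Without the sixth wild type TCDD array the median was -0.279, with 3 higher and 13 lower.

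In knockout livers TCDD changed none of the 36 members by the same test, limma, and 0 of 36 had an unadjusted p under 0.05, against 3.28% of all genes. Among all genes 0.011% were called higher and 0% lower. The members' median difference was -0.036, against -0.016 over all genes. Apart from Ass1, which read unevenly (-1.20 ± 0.67), the 35 members differed by -0.20 to 0.17, and by -0.27 to 0.19 without the first knockout TCDD array. The 3 against 3 arrays gave a median standard error of 0.132, against 0.098 for wild type. In a member with such an error, changes of the size seen for Cps1 or Gnmt would be harder to detect than in wild type. Gnmt itself had a smaller error, and its knockout difference was -0.05 ± 0.06. Of all probe sets, 6 were called in knockout (24 without the first knockout TCDD array), against 1882 in wild type. A call in knockout therefore needed a smaller unadjusted p. The count of 0 called members does not by itself show that changes as large as most of those called in wild type were absent. Without the first knockout TCDD array 0 members were called, 0 had an unadjusted p under 0.05, and the median was -0.048. With scan day as a block the median was -0.036, and within day 2 (2 TCDD arrays, 1 corn oil array) -0.025, with 0 members called in each; day 1 holds no knockout TCDD array.

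The difference between the TCDD effects (knockout minus wild type) was tested directly. It was called for 1 member upwards, Otc, and for 2 downwards, Nags and Cdo1. Of all genes, 0.385% were called upwards and 1.25% downwards. By limma 16 of 36 members had an unadjusted p under 0.05, 12 upwards and 4 downwards, against 11% of all genes. The members' median was 0.247, against -0.026 over all genes. Without the first knockout TCDD array Otc and Nags were called and Cdo1 was not. The count of members with an unadjusted p under 0.05 was then 11, and the members' median was 0.23. Nags read 9.62, 9.26 and 9.39 in knockout livers with TCDD, against 9.57, 9.52 and 9.59 with corn oil, and these overlapped. Its TCDD difference was -0.14 ± 0.12 in knockout and 1.19 ± 0.09 in wild type livers, which is -1.32 ± 0.15 apart (adjusted p = 3.15e-04). This held without any single array, from -1.42 to -1.24. Without the first knockout TCDD array the knockout difference was -0.24 ± 0.12.

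Otc read 13.11, 13.24 and 13.14 in knockout livers with TCDD, against 12.94, 12.92 and 13.12 with corn oil. These overlapped, with a difference of 0.17 ± 0.09, against -0.35 ± 0.06 in wild type. The effects were 0.52 ± 0.11 apart (adjusted p = 0.0315). Without the first knockout TCDD array the knockout difference was 0.19 ± 0.10 and the effects were 0.54 apart (limma adjusted p = 0.0452). The call was lost without any 1 of 8 arrays (wild type corn oil replicates 2 to 5, knockout TCDD replicates 2 and 3, knockout corn oil replicates 1 and 2), with values from 0.48 to 0.58 over all arrays left out. On the second Otc probe set the TCDD difference was -0.01 in knockout and -0.33 in wild type, and their distance was not called (limma adjusted p = 0.241). On the mean of its 3 probe sets the effects were 0.41 apart and the call was lost (limma adjusted p = 0.305).

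Cdo1 read 13.86, 13.85 and 13.95 in knockout livers with TCDD, against 13.89, 14.01 and 13.94 with corn oil, and the groups overlapped. Its TCDD difference was -0.06 ± 0.05 in knockout and 0.22 ± 0.03 in wild type, -0.28 ± 0.06 apart (adjusted p = 0.0285). Leaving out the first knockout TCDD array gave -0.05 ± 0.05 in knockout and a distance of -0.27 (limma adjusted p = 0.0703). This call was lost without any 1 of 6 arrays (wild type TCDD replicate 4, wild type corn oil replicate 5, knockout TCDD replicates 1 and 2, knockout corn oil replicates 2 and 3), with values from -0.31 to -0.25 over all arrays left out. It was also lost after quantile normalization (-0.21, limma adjusted p = 0.133) and median centring (-0.24, limma adjusted p = 0.164). For the other 33 members the distance between the effects was not called, so a difference between genotypes in their response is not shown gene by gene. With array weights 6 members were called upwards and 2 downwards. Without the sixth wild type TCDD array these were 3 and 2, and without wild type corn oil replicate 5, knockout TCDD replicate 2 or knockout corn oil replicate 2 only Nags was called. With scan day as a block only Nags was called, at an overall median of 0.205 against 0.247 without the block, and within day 2 none.

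Without TCDD, 12 of 36 members were higher and 0 lower in knockout livers than in wild type livers. Among all genes 1.4% were higher and 0.934% lower. The median log2 difference of the members was 0.344, against 0.006 over all genes. By limma 24 of 36 members had an unadjusted p under 0.05, against 11.5% of all genes, and all 24 were higher. By role, 4 of 6 methionine and transsulfuration genes, 2 of 7 urea cycle genes, 2 of 4 tyrosine genes, and 1 each of the transaminase, histidine, glycine and lysine groups rose, and 0 of 2 in the taurine route.

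Got1, which moves nitrogen between aspartate and glutamate in the cytosol, read 13.68, 13.23 and 13.19 in knockout livers, against 10.73, 11.04, 11.94, 10.21 and 10.61 in wild type livers with corn oil. The groups were far apart. The difference was 2.46 ± 0.34, or 5.50-fold (adjusted p = 0.00117). Its mitochondrial partner Got2 read 12.83, 12.87 and 12.81 in knockout, against 12.78, 12.76, 12.84, 12.79 and 12.74 in wild type. These overlapped, and Got2 was not called (0.06 ± 0.04, adjusted p = 1).

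Aass read 13.02, 12.99 and 13.02 in knockout livers, against 11.82, 12.17, 12.34, 12.02 and 12.10 in wild type livers. All knockout arrays were above all wild type arrays (0.92 ± 0.12, 1.90-fold, adjusted p = 6.85e-04). Agxt read 12.05, 11.99 and 12.28 in knockout, against 10.92, 11.30, 11.71, 11.07 and 11.26 in wild type. The groups did not overlap (0.86 ± 0.17, 1.81-fold, adjusted p = 0.0204), but the call was lost without wild type corn oil replicate 4, knockout corn oil replicate 1 or knockout corn oil replicate 3, with values from 0.77 to 0.97 over all arrays left out. Cystathionine gamma-lyase (Cth), which frees cysteine from cystathionine, read 14.10, 13.78 and 13.92 in knockout, against 13.11, 13.12, 13.48, 12.79 and 12.99 in wild type. Here too the groups were separate (0.84 ± 0.14, 1.79-fold, adjusted p = 0.00635).

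Mat1a read 14.88, 14.92 and 14.88 in knockout livers, against 13.95, 14.05, 14.18, 13.88 and 14.37 in wild type livers, without overlap. The difference was 0.81 ± 0.13, or 1.75-fold (adjusted p = 0.00518). Asl read 13.22, 13.17 and 13.20 in knockout, against 12.34, 12.44, 12.60, 12.19 and 12.60 in wild type. The knockout arrays agreed closely and all lay higher (0.76 ± 0.13, 1.70-fold, adjusted p = 0.0082). The remaining 6 called members were urocanase Uroc1 (0.72 ± 0.12), Slc25a15 (0.61 ± 0.09), Hgd (0.51 ± 0.07), Gnmt (0.34 ± 0.05), Hpd (0.25 ± 0.05) and Ahcy (0.23 ± 0.05). On the mean of a gene's probe sets Uroc1 (1.01, limma adjusted p = 0.158) and Slc25a15 (0.72, limma adjusted p = 0.41) lost their calls. In a fit of the corn oil groups alone 8 of the 12 were called, without Hpd, Agxt, Uroc1 and Cth (limma adjusted p = 0.147, 0.108, 0.0957 and 0.0746). Hpd, an early step of tyrosine breakdown, lost its call without any 1 of 7 arrays (wild type TCDD replicate 5, wild type corn oil replicates 1, 2, 4 and 5, and knockout corn oil replicates 1 and 3; 0.22 to 0.29 over all arrays left out). Hpd also lost it after quantile normalization (0.21, limma adjusted p = 0.095) and median centring (0.24, limma adjusted p = 0.0761). Ahcy, which splits S-adenosylhomocysteine, lost it without wild type corn oil replicate 4 or knockout corn oil replicates 1 or 2 (0.21 to 0.26).

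Gpt read 11.79, 11.60 and 11.63 in knockout livers, against 10.76, 11.12, 11.41, 11.18 and 11.21 in wild type livers, with no overlap and an adjusted p of 0.0678 (0.54 ± 0.13). Gpt2 read 12.46, 12.51 and 12.73 in knockout, against 11.63, 11.83, 12.28, 11.84 and 12.48 in wild type, with overlap (0.55 ± 0.18, adjusted p = 0.229). The other Gpt2 probe sets differed by 0.66, 0.71 and 0.49 (limma adjusted p 0.0534, 0.0424 and 0.602). The shared Ass1 and Gm5424 probe set was higher in knockout, at 0.53 ± 0.10 (limma adjusted p = 0.0171), with means of 15.10 and 14.57 in knockout and wild type livers. Among all 24 members not called, the differences ran from -0.33 for Csad to 1.86 for the unevenly read Ass1 probe set. Tat, the first enzyme of tyrosine breakdown, missed the threshold at 0.97 ± 0.26 (adjusted p = 0.0941). None of the 36 measured members lies on chromosome 12, where Ahr is. Age and source of the mice went with genotype and were not tested.

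**Figure D3:**
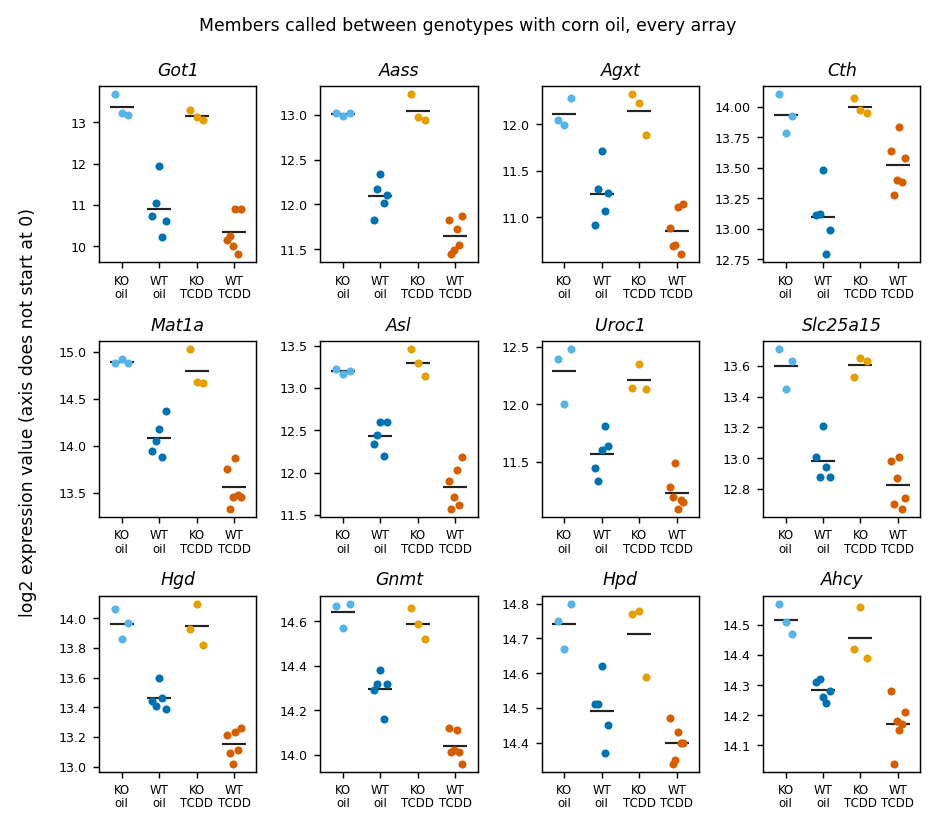
Log2 expression value (y axis, own scale in each panel) of the 12 members called between genotypes with corn oil, 1 point per array and a line at each group mean, for knockout corn oil, wild type corn oil, knockout TCDD and wild type TCDD. In all 12 panels the knockout corn oil arrays lie above the wild type corn oil arrays, and in Got1 they reach 13.19 to 13.68.

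Within scan day 1 (2 knockout arrays, 1 wild type array) the members' median genotype difference was 0.536, and within day 2 (1 and 3 arrays) 0.376, with 0 called on either day. With scan day as a block it was 0.335, with 11 members higher. All 12 called members kept their direction on both days.

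Members called in the wild type TCDD comparison and also between genotypes are set side by side here. These comparisons share the wild type corn oil arrays, so their signs are not independent. Both subtract the mean of those arrays, so an error in it would shift both differences in the same direction. Asl differed by -0.60 after TCDD and by 0.76 between genotypes, Mat1a by -0.53 and 0.81, Aass by -0.44 and 0.92, Hgd by -0.31 and 0.51, and Gnmt by -0.26 and 0.34. On each array the median deviation of the 36 members from the wild type corn oil mean was -0.347 (lowest), -0.232 (median) and -0.157 (highest) with wild type TCDD, against -0.081, 0.019, 0.159, -0.064 and 0.009 with wild type corn oil. It was 0.393, 0.329 and 0.271 with knockout TCDD, against 0.444, 0.251 and 0.38 with knockout corn oil. The knockout groups overlapped each other and lay above both wild type groups, which did not overlap each other.

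**Figure D4:**
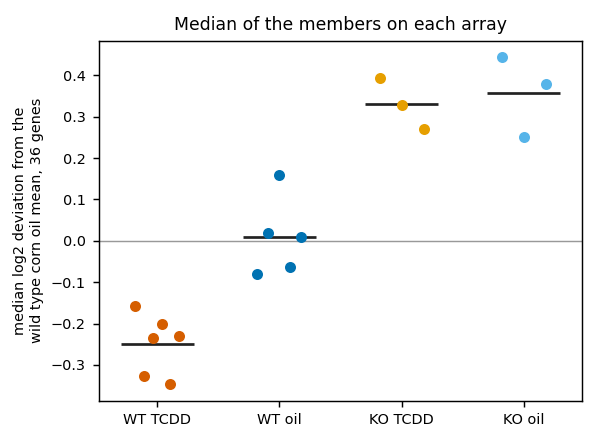
Median over the 36 members of each array's log2 deviation from the wild type corn oil mean (y axis), 1 point per array and a line at each group mean. Wild type TCDD arrays lie lowest, at -0.347 to -0.157, and all knockout arrays lie at 0.251 or higher.

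Further genes of the same pathways, listed beside the members, moved both ways. Of 52 other catabolic genes 46 were measured. After TCDD in wild type 6 rose and 8 fell, against 3.75% and 2.56% of all genes, with a median of -0.041. The largest were the asparaginase Aspg (-0.81 ± 0.13), glutamine synthetase Glul (-0.64 ± 0.07), which captures ammonia around the central vein, Acad8 (0.63 ± 0.05) of valine breakdown, the threonine synthase-like Thnsl2 (0.61 ± 0.08), the mitochondrial Shmt2 (0.60 ± 0.07) and sulfite oxidase Suox (-0.58 ± 0.08). While cytosolic Shmt1 fell, its mitochondrial counterpart rose. Between genotypes 3 rose and 1 fell, against 1.4% and 0.934% of all genes. Ornithine aminotransferase Oat (0.74 ± 0.14), Ivd (0.50 ± 0.08) of leucine breakdown and Prodh2 (0.30 ± 0.07) were higher in knockout, and Glul (-1.02 ± 0.08) was lower. Prodh2 lost its call without any 1 of 9 arrays (wild type TCDD replicates 1 and 4, wild type corn oil replicates 1, 2, 4 and 5, and each knockout corn oil array; 0.28 to 0.32 over all arrays left out), and Oat lost it without any 1 of the 3 knockout corn oil arrays (0.63 to 0.80). In knockout livers 0 of 46 were called for TCDD by limma, and 1 had an unadjusted p under 0.05, against 3.28% of all genes. Without the first knockout TCDD array 0 of the 46 were called and 2 had an unadjusted p under 0.05.

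Of 16 amino acid and urea cycle transporters, all measured, 2 rose and 4 fell after TCDD in wild type, against 3.75% and 2.56% of all genes. Their median was -0.117. The aromatic amino acid transporter Slc16a10 differed by -1.30 ± 0.20 and the mitochondrial aspartate/glutamate carrier Slc25a13 by -0.40 ± 0.08. Slc6a13 fell by 0.43 ± 0.06 and Slc38a4 by 0.28 ± 0.05, and the glutamate transporter Slc1a2 (0.69 ± 0.16) and Slc6a12 (0.52 ± 0.10) rose. Between genotypes the cationic amino acid transporter Slc7a2 (1.26 ± 0.23) and Slc38a4 (0.42 ± 0.06) were higher in knockout, and 0 fell. These are 2 and 0 of 16, against 1.4% and 0.934% of all genes. Slc1a2 lost its call without wild type corn oil replicate 1 or 3 (0.60 to 0.76 over all arrays left out), and Slc7a2 without knockout corn oil replicate 1 or 3 (1.11 to 1.38). On the mean of its probe sets Slc38a4 lost its genotype call (0.31, limma adjusted p = 0.0895).

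Hepatocyte markers were close to constant but 3 of 5 measured fell after TCDD in wild type: Apoa1 (-0.14 ± 0.03), Ahsg (-0.10 ± 0.02) and Apoc3 (-0.09 ± 0.02). Their summed level was 17.72 to 17.78 with wild type TCDD, 17.80 to 17.85 with wild type corn oil, 17.77 to 17.89 with knockout TCDD and 17.85 to 17.92 with knockout corn oil (log2 of the sum). Of 31 measured markers of other cell types 0 rose and 2 fell after TCDD in wild type, the endothelial Clec4g (-0.55 ± 0.07) and Stab2 (-0.35 ± 0.05). Over all genes 3.75% rose and 2.56% fell. The 6 endothelial markers summed to 10.26 to 10.52 with wild type TCDD, 10.68 to 10.86 with wild type corn oil, 10.58 to 10.68 with knockout TCDD and 10.60 to 10.78 with knockout corn oil. Between genotypes Lyve1 (1.64 ± 0.38) of the endothelial list and Ahsg (0.15 ± 0.03) were called higher in knockout. These were 1 of the 31 markers of other cell types and 1 of the 5 hepatocyte markers, against 1.4% of all genes. The other 5 endothelial markers were lower in knockout, with 0 called, and the median of the endothelial list was -0.113. All 3 measured neutrophil markers and 3 of 4 lymphocyte markers averaged under 4 on the log2 scale. So did 2 of 4 cholangiocyte, 1 of 2 red cell and 1 of 6 stellate markers, and at such levels a change could be missed. The part of these shifts in the members' results was not tested.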

How the data were processed

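Liver RNA was measured on 17 arrays, grouped by the sample titles. The values are log2 expression values per probe set as deposited by the authors. Per the submitters' processing notes affy 1.5.8, RMA and GCRMA were used; the sources used here do not say which of RMA and GCRMA gave these values. Normalization across arrays hides a change shared by most genes, and bright probe sets near saturation understate differences. Scan days come from per-array scan settings, also deposited by the authors. The precision is limited by how many arrays each group has.

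All 45037 probe sets other than controls were fitted with limma 3.58.1 (lmFit, eBayes) in R 4.3.3 with 1 mean per group (13 residual degrees of freedom), without a filter. Benjamini-Hochberg adjustment ran over all probe sets of a contrast, two-sided. The code was tested on simulated data. Each gene is read from its brightest probe set naming that gene alone. Errors are standard errors for differences and SD for levels. Members and lists were chosen with earlier results of these data known. Every member may be named; array values are given for up to 12 members called for TCDD in wild type, 6 for genotype, 6 for each other contrast, and the Gpt and Got pairs, and up to 6 called genes of each other list are named. Alternatives tried were normalization, scan day, replicate block, array weights, moderation, a level filter, the adjustment, the probe set rule and leaving out each array. No 2 arrays were identical: the smallest SD of the difference between 2 arrays was 0.18.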

Additional observations from a re-analysis of the deposited data

Results flagged for a closer look

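Of 72 sets of values examined (36 members in each of the wild type groups), 3 had an array far from the rest, and chance alone picks out about 1 in 20. Aldh4a1, of proline breakdown, read 10.47 on the sixth wild type TCDD array, against 11.11 to 11.32 on the others of its group. Dao read 2.41 on the same array, against 2.34 to 2.35. Ass1 read 5.64 on wild type corn oil replicate 3, against 5.77 to 5.80. That sixth array also had the high Gapdh 3′ minus 5′ signal; its part in the Aldh4a1 and Dao values was not tested.

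The TCDD effect differed between genotypes, by the test of the difference itself, for 3 members. The knockout minus wild type distance was -1.32 for Nags, 0.52 for Otc and -0.28 for Cdo1 on the log2 scale. Nags kept its call without any single array. Otc lost its call without any 1 of 8 arrays and Cdo1 without any 1 of 6, and both lost it with scan day as a block.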

How the results depend on the processing

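No called member changed sign under any of the 29 alternatives. In wild type the TCDD count of 14 called members was 0 within scan day 1 (median -0.162), 3 within day 2, 9 with the replicate block and 22 when only probe sets with a mean level of at least 5 were tested. The genotype count of 12 was 0 within scan day 1 (median 0.536), 0 within day 2 and 5 with the replicate block. For the difference of the TCDD effects the count of 3 was 1 with scan day as a block, 0 within day 2 and 8 with array weights. Leaving out each array in turn gave 12 to 17, 9 to 14 and 1 to 5 called members in these comparisons, and 0 for TCDD in knockout. Fewer arrays enter the fits within a day; the cause of the other shifts was not tested. Arrays with the same replicate number showed little likeness: 2 of 20 same-numbered pairs had a correlation of deviations above 0.1 (-0.269 to 0.135). The median was -0.076, against 0.009 for other-numbered pairs. The titles do not say what the numbers stand for, and weak correlations cannot exclude a shared block. With 3 knockout arrays a group, and log2 values near the top of the scale, small changes may be missed.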

Other observations

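Of 22 listed regulators and hormone-responsive genes of amino acid catabolism, all measured, 0 rose and 4 fell after TCDD in wild type livers. Over all genes 3.75% rose and 2.56% fell. The gluconeogenic enzyme Pck1 averaged 12.14 ± 0.69 with TCDD (SD, n = 6) and 13.82 ± 0.35 with corn oil (SD, n = 5), a limma difference of -1.68 ± 0.28. The transcription factors Cebpa (-0.69 ± 0.14) and Klf15 (-0.58 ± 0.13) and the mitochondrial deacetylase Sirt3 (-0.30 ± 0.07) were the other called genes. Klf15 lost its call without wild type TCDD replicate 4 or 6 or wild type corn oil replicate 1, 3 or 5 (-0.70 to -0.47 over all arrays left out), and Sirt3 without wild type TCDD replicate 2 or wild type corn oil replicate 1, 2 or 3 (-0.33 to -0.24). Cebpa kept its call without any single array but lost it in a fit of the wild type groups alone (limma adjusted p = 0.0535). Between genotypes with corn oil, 1 of 22 was called higher and 0 lower, against 1.4% and 0.934% of all genes. The called gene, asparagine synthetase (Asns), averaged 8.56 ± 0.41 in knockout livers (SD, n = 3) and 6.20 ± 0.36 in wild type livers (SD, n = 5), a difference of 2.36 ± 0.40. TCDD changed none of the 22 in knockout livers by limma, where 1 had an unadjusted p under 0.05, against 3.28% of all genes. Without the first knockout TCDD array 0 of the 22 were called and 2 had an unadjusted p under 0.05.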
